A study of Mus musculus with 9 samples.

Results

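The regions described here are Hoxa13 binding sites that were listed in mouse limb buds at embryonic day E11.5 and again at E12.5, but not in the autopod at E11.0. A binding site is a peak of chromatin immunoprecipitation followed by sequencing (ChIP-seq). An E11.5 Hoxa13 peak was taken when it shared at least 1 bp with an E12.5 Hoxa13 peak and no bp with any E11.0 Hoxa13 peak. Of 143460 E11.5 peaks, 17319 met this rule (12.1%), and they are called kept peaks below. Kept peaks were chosen by the overlaps between the 3 Hoxa13 lists, so those overlaps are described and not tested.

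Hoxa13 and Hoxa11 are homeodomain transcription factors encoded side by side in the HoxA cluster. Hoxa11 acts in the zeugopod, the future forearm and lower leg, and Hoxa13 in the autopod, the future hand and foot. As the autopod grows out, Hoxa13 comes to occupy the distal limb bud and Hoxa11 expression withdraws from it. Group 13 Hox proteins are also known for shifting regulation of the HoxD cluster from the forearm landscape on its telomeric side to the digit landscape on its centromeric side.

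All libraries came from wild-type ICR embryos and home-made antibodies. The Hoxa13 chromatin came from 11 pairs of autopods at E11.0, whole limb buds of a litter at E11.5 and limb buds at E12.5, and each stage is 1 library. The Hoxa11 chromatin, in replicates 1 and 2, came from E11.5 limb buds. The E11.5 Hoxa13 list was set against the other lists: Hoxa13 at E11.0 (50890 peaks), Hoxa13 at E12.5 (44699 peaks), Hoxa11 replicate 1 (2953 peaks) and Hoxa11 replicate 2 (1647 peaks). Tissue changed together with stage between E11.0 and E11.5, and the library protocol between E11.5 and E12.5, so stage, tissue and protocol cannot be told apart. Pooled limb buds hold many cell types, and a peak lost from some cells cannot be told apart from weaker binding in all. Read depth was unknown, and the Hoxa13 lists give positions and no signal. Intervals are at 95%, cover counting error over peaks only, and say nothing of the spread between embryos.

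Most kept peaks corresponded to a single, narrower and nearly concentric E12.5 peak. Of the 17319 kept peaks, 17149 met exactly 1 E12.5 peak, 166 met 2 and 4 met 3 or more. The median width was 328 bp for kept peaks (quartiles 274 and 390) and 151 bp for their E12.5 partners (125 and 191). In 84.5% of the 17494 pairs the E12.5 peak lay wholly inside the E11.5 peak. The centres were a median of 28.5 bp apart (13.0 and 56.5), and 89.0% of pairs had centres within 100 bp. Because E12.5 peaks were so much narrower, only 40.4% of pairs passed an overlap of at least 50% of both peaks. This geometry was not particular to kept peaks. Of the E11.5 peaks that met both other stages, 97.5% met exactly 1 E12.5 peak. In 86.1% of their pairs the E12.5 peak lay wholly inside, and the centres were a median of 32.5 bp apart. All E12.5 peaks together had a median width of 154 bp. Seen from the later stage, 17483 of the 44699 E12.5 peaks (39.1%) were partners of kept peaks.

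For few kept peaks did the absence at E11.0 depend on a near miss. The nearest E11.0 peak lay a median of 16448 bp away (quartiles 6548 and 37798.5), close to the 17059 bp of the 96662 E11.5 peaks that met neither other stage. An E11.0 peak stood within 500 bp of 385 kept peaks (2.22%) and within 100 bp of 36 (0.208%). In 11 cases the E12.5 partner met an E11.0 peak that the E11.5 peak did not. At the edge of the rule, the 5 kept peaks with the least overlap shared 1 to 5 bp with E12.5. The 5 nearest peaks left out on that side lay 3 to 11 bp from an E12.5 peak. On the E11.0 side, the 5 closest kept peaks stood 9 to 20 bp from an E11.0 peak, and the 5 peaks most narrowly left out shared 1 to 9 bp with one.

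Kept peaks were intermediate in width. E11.5 peaks of all 3 stages were wider, with a median of 391 bp, and those of E11.5 alone were narrower, at 267 bp. Peaks shared with E11.0 and not E12.5, called early peaks below, had a median of 315 bp. When all E11.5 peaks were ranked into 5 equal classes of width, kept peaks rose from 5.55% of the narrowest class (203 to 230 bp) to 17.1% of the class of 308 to 368 bp and 18.998% of the widest (368 bp and over). Peaks of all 3 stages rose more steeply, from 1.74% to 11.1% and 28.4%. Among the E11.5 peaks that met E12.5, those with no E11.0 peak were therefore 76.2% of the narrowest class and 40.1% of the widest. These shares describe the rule's own overlaps, which wider peaks meet more easily.

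Hoxa11 binding, which the rule did not use, was found at kept peaks well above its level over E11.5 peaks as a whole. A Hoxa11 site of both replicates, made by merging replicate peaks that overlapped, was met by 361 kept peaks (2.08%, exact interval 1.88 to 2.31), against 0.593% of all E11.5 peaks. In replicate 1 alone, 758 kept peaks met a Hoxa11 peak (4.38%, 4.08 to 4.69), against 1.46% of all. In replicate 2 alone the number was 448 (2.59%, 2.36 to 2.83), against 0.803%. Kept peaks thus stood above the whole list in both replicates. Replicate 2, by its title, has an input library of its own, whereas replicate 1 shares one with Hoxa13 at E11.5. The great majority of kept peaks, 16474 of 17319, met no Hoxa11 peak of either replicate.

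The contrast with early peaks held in each Hoxa11 replicate. Early peaks met a replicate 1 peak in 80 of 15712 cases (0.509%) and a replicate 2 peak in 40 (0.255%). Kept peaks exceeded them by 3.87 percentage points in replicate 1 (Newcombe interval 3.55 to 4.198) and by 2.33 points in replicate 2 (2.09 to 2.59). Against peaks of E11.5 alone the differences were 3.72 points (3.42 to 4.04) and 2.31 points (2.08 to 2.56). Where Hoxa11 was met, both replicates met the same Hoxa13 peak more often for kept peaks than for early peaks or peaks of E11.5 alone. In this count the Hoxa11 peaks of the 2 replicates did not have to overlap each other. Of the kept peaks with replicate 2, 80.6% also met a replicate 1 peak (76.6 to 84.1), against 45.0% of early peaks (29.3 to 61.5). For peaks of E11.5 alone that share was 63.7% (57.6 to 69.4), and for peaks of all stages 73.8% (69.2 to 78.1). The last interval overlaps that of kept peaks, which does not show that the shares are equal. No interval was computed for their difference. Taken from replicate 1, the longer list, the shares were lower: 47.6% of kept peaks with replicate 1 also had replicate 2 (44.0 to 51.3). On that count peaks of all stages gave 47.2%, peaks of E11.5 alone 26.9% and early peaks 22.5%. The part of peak width in these shares was not tested. The plot of Hoxa11 shares by stage class shows these values.

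**Figure D1:**
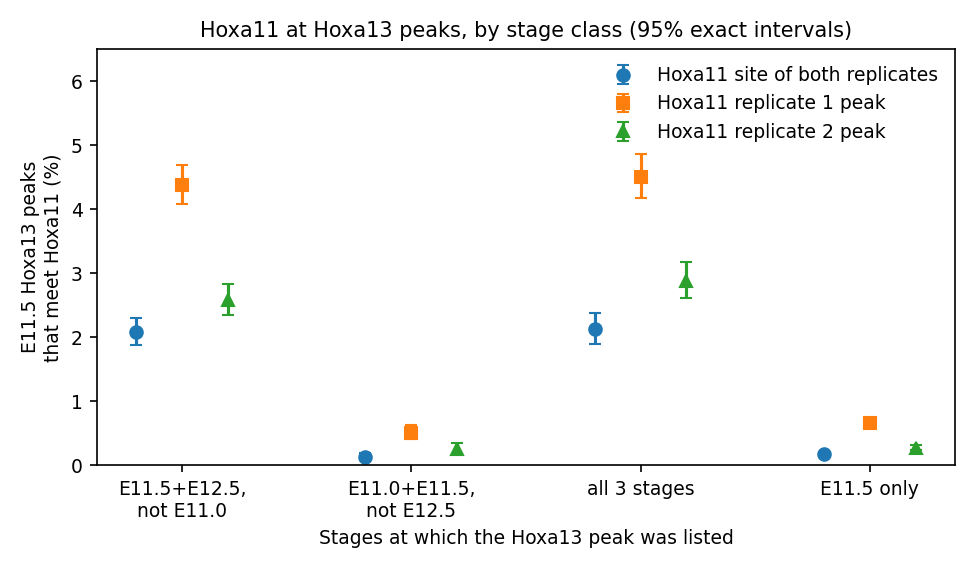
Share of E11.5 Hoxa13 peaks that met Hoxa11 (percent, vertical axis) in the 4 classes of stages at which the peak was listed, with 95% exact intervals. Circles are Hoxa11 sites of both replicates, squares replicate 1 and triangles replicate 2. Kept peaks, at 2.08, 4.38 and 2.59%, and peaks of all 3 stages lie above the other classes for each of these counts.

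In raw shares, kept peaks did not differ from peaks of all 3 stages beyond counting error. The latter held a replicated Hoxa11 site in 2.13% of cases, a difference of −0.0439 points (−0.369 to 0.276). Peaks of all stages were wider, however, and in all 4 classes of stages the widest peaks held Hoxa11 most often. Kept peaks with a replicated Hoxa11 site had a median width of 483 bp, against 325 bp for those with no Hoxa11 peak. Their E12.5 partners were wider as well, at 241 against 150 bp. The nearest E11.0 peak was about as far away, at a median of 17328 against 16352 bp.

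Within classes of like width, Hoxa11 was found more often at kept peaks than at peaks of all stages in the 2 widest classes, but not when every peak was only set to one length. With each E11.5 peak resized to 200 bp about its centre for the Hoxa11 overlap, and no ranking by width, the difference was −0.0567 points (−0.380 to 0.261). In the widest class, 278 of 5451 kept peaks (5.10%) and 283 of 8156 peaks of all stages (3.47%) held a replicated Hoxa11 site, a difference of 1.63 points (0.936 to 2.35). The median widths there were 445 bp for kept peaks and 465 bp for the others. In the next class, of 308 to 368 bp, the shares were 0.775% and 0.125%, a difference of 0.649 points (0.362 to 0.946). In the 3 narrower classes the shares of kept peaks were 0.566, 0.550 and 0.752%, and those of peaks of all stages 0, 0.308 and 0.314%. None of these 3 differences in replicated sites had an interval that excluded 0. In the narrowest class, 0 of 498 peaks allows a share of up to 0.602% by 3 counts of the total, or 0.738% by the exact interval. With single replicates, only replicate 1 at 266 to 308 bp had an interval above 0 in these 3 classes (1.11 points, 0.473 to 1.65). Replicate 2 gave 0.0307 points there (−0.672 to 0.550), and −0.128 points at 230 to 266 bp (−1.18 to 0.490). Weighted over the 5 classes by the number of kept peaks in each, the difference was 0.860 points (0.601 to 1.12). It was 1.73 points with replicate 1 peaks (1.36 to 2.102) and 0.806 with replicate 2 peaks (0.499 to 1.11).

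The same order appeared when peaks were ranked by the width of the E12.5 partner. With partners of 235 bp or more, 189 of 2122 kept peaks (8.91%, 7.73 to 10.2) and 239 of 4095 peaks of all stages (5.84%, 5.14 to 6.60) held a replicated Hoxa11 site. Weighted over 5 classes of partner width, the difference was 0.972 points (0.719 to 1.23). The weighting by width was planned with earlier results of these data known, the weighting by partner width was added after the values had been seen, and neither makes up for missing signal values.

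The contrast with early peaks was as large at like width. Weighted over the classes of E11.5 width, kept peaks exceeded early peaks by 1.95 points (1.73 to 2.17), near the unweighted 1.96. In the widest class early peaks held a replicated Hoxa11 site in 0.310% of cases (0.169 to 0.519), against 5.10% of kept peaks.

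**Figure D2:**
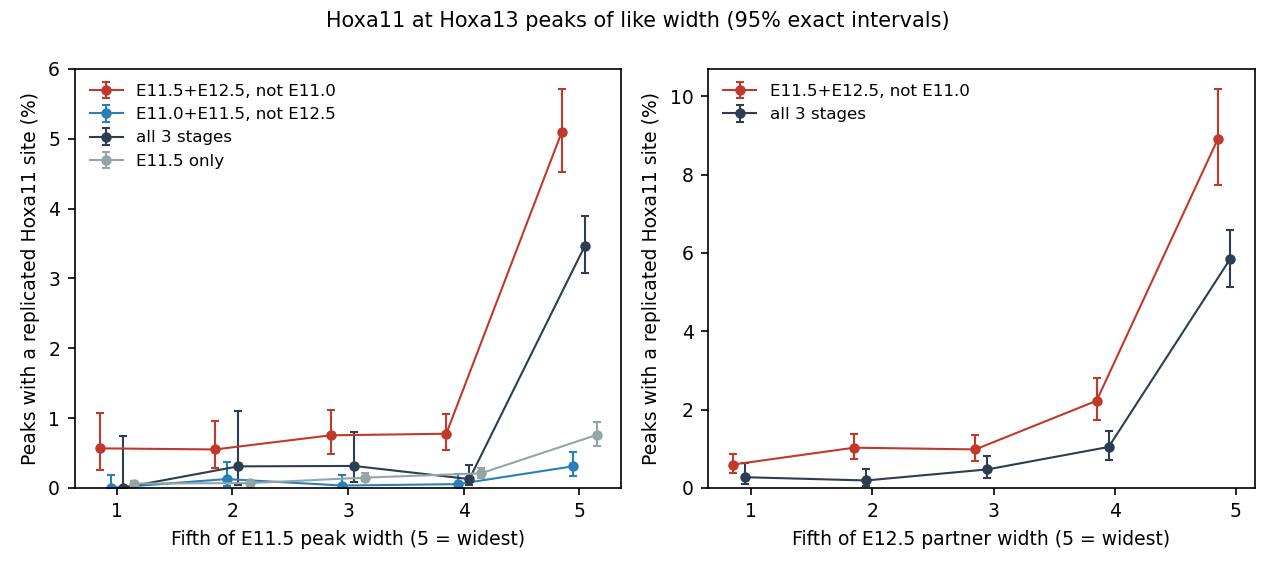
Share of E11.5 Hoxa13 peaks with a replicated Hoxa11 site (percent) by class of E11.5 peak width (left) and of E12.5 partner width (right), with 95% exact intervals, and colours for the stages at which the Hoxa13 peak was listed. In the widest class on the left, kept peaks stand at 5.10% and peaks of all 3 stages at 3.47%, and on the right they stand at 8.91 and 5.84%.

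Where Hoxa11 met kept peaks, its summits lay mostly inside them, as in the other classes, and mostly inside the narrower E12.5 peaks too. Summits are given for replicate 2 only. Pairs were formed by overlap, which by itself favours a summit inside the peak. Where a Hoxa13 peak met several E12.5 peaks, the partner with its centre nearest to the summit was taken, which favours short distances. Of 454 pairs of a kept peak and a replicate 2 peak, 424 had the Hoxa11 summit inside the E11.5 peak (93.4%). In 365 it lay inside the nearest E12.5 partner (80.4%, 76.4 to 83.95). The summit was a median of 64.0 bp from the centre of the E11.5 peak and 51.25 bp from the centre of the nearest E12.5 partner. At peaks of all 3 stages, which are wider, those medians were 106.75 and 77.5 bp. The share inside the nearest E12.5 partner was 80.2% (76.2 to 83.8). From the E11.5 centre the median was 76.0 bp at early peaks and 53.5 bp, closer than at kept peaks, at peaks of E11.5 alone. The share of summits inside the E11.5 peak was 93.4% at peaks of all 3 stages, 90.2% at early peaks and 90.3% at peaks of E11.5 alone.

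**Figure D3:**
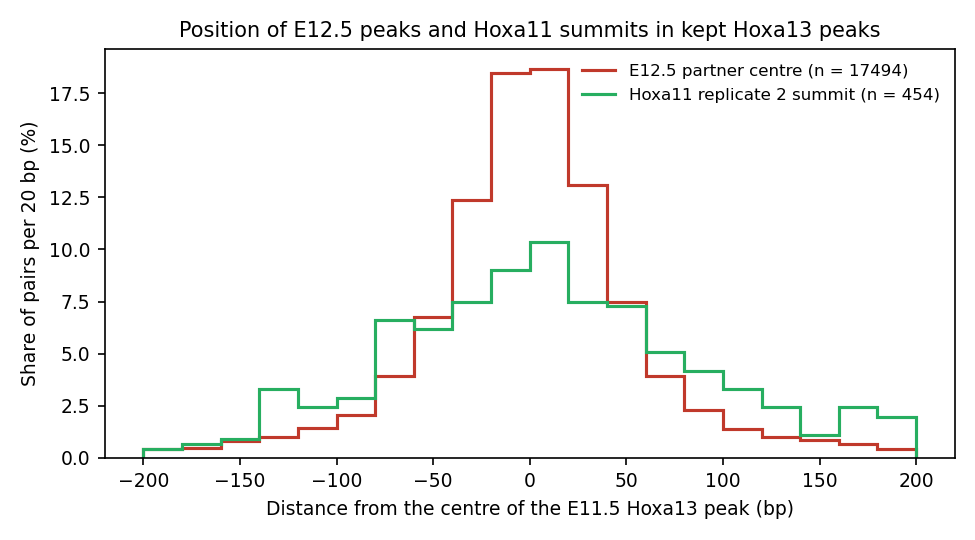
Distance in bp from the centre of each kept E11.5 peak to the centre of its E12.5 partner (17494 pairs) and to the Hoxa11 replicate 2 summit (454 pairs), as the percent of pairs in each 20 bp step. Both are highest at the centre, the E12.5 centres more narrowly so, and 2.50 and 14.5% of pairs lie beyond the 200 bp shown on either side. Pairs were formed by overlap, which favours short distances.

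Seen from Hoxa11, kept peaks were met more often by high-scoring than by low-scoring peaks. By the authors' score, 74 of the 412 lowest-scoring replicate 2 peaks met a kept peak (17.96%, 14.4 to 22.0), as did 144 of the 412 highest-scoring (34.95%, 30.4 to 39.8). Peaks of all 3 stages rose as well, from 23.5% (19.5 to 27.9) to 33.0% (28.5 to 37.8). For early peaks the corresponding shares were 3.88% and 0.971%. High-scoring Hoxa11 peaks were also wider, with a median of 433.5 bp against 239 bp, and the part of width in this rise was not tested. By the authors' values, median fold enrichment was 4.09 for the 448 replicate 2 peaks at kept peaks and 4.14 at peaks of all stages. It was 3.96 at peaks of E11.5 alone, 3.74 at early peaks and 3.43 for the 481 that met no E11.5 Hoxa13 peak.

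**Figure D4:**
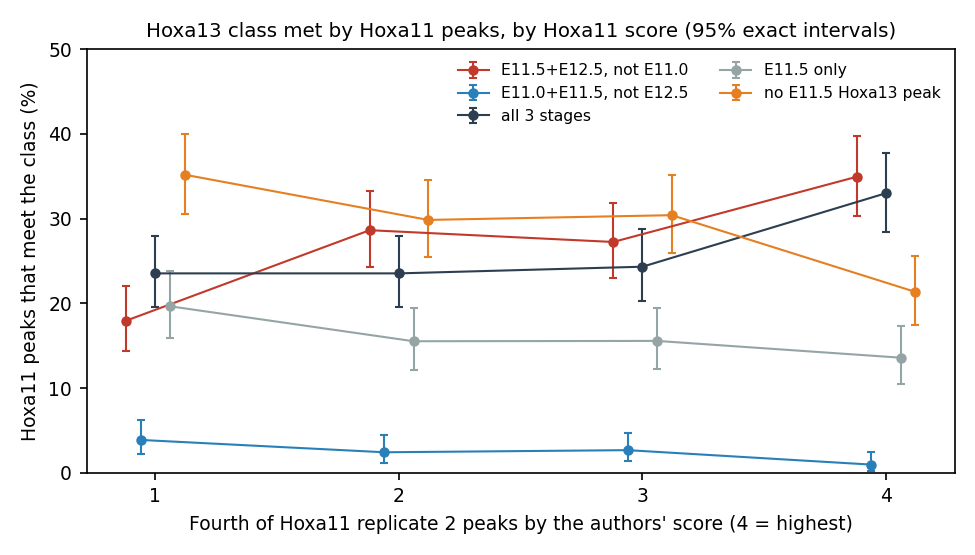
Share of Hoxa11 replicate 2 peaks (percent) that met each class of E11.5 Hoxa13 peak, in 4 equal groups by the authors' score, with 95% exact intervals. The share that met kept peaks was 17.96% in the lowest group and 34.95% in the highest, while the share that met no Hoxa13 peak was 35.2 and 21.4%.

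The kept peak with the highest Hoxa11 score lay on chromosome 2 of mm9 from 74976217 to 74976945. It was 729 bp wide, enclosed an E12.5 peak from 74976291 to 74976711, and the nearest E11.0 peak was 2254 bp away. Hoxa11 replicate 1 had a peak of 608 bp there. The replicate 2 peak was 11.6-fold enriched by the authors' value, with a −log10 q of 86.8 and rank 8 of 1647, and its summit at 74976527 fell inside the E12.5 peak.

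Next in Hoxa11 score was a kept peak on chromosome 3 from 80851228 to 80851955, where replicate 2 was 15.3-fold enriched and replicate 1 had a peak of 1260 bp. It was followed by peaks on chromosome 5 (147378869 to 147379699, 12.6-fold), chromosome 16 (62468466 to 62469408, 12.6-fold) and chromosome 4 (59146059 to 59147131, 8.08-fold). Across the 10 kept peaks with the highest Hoxa11 score, fold enrichment ran from 6.19 to 15.3 and E11.5 width from 255 to 1237 bp, and 8 were wider than the median kept peak. Each met 1 E12.5 peak, and in 7 of 10 the Hoxa11 summit fell inside it. The distance to the nearest E11.0 peak ranged from 2108 to 49857 bp, so none of the 10 was absent at E11.0 by a near miss. A pair of the 10 were neighbours on chromosome 11, from 87256893 to 87257147 and from 87262181 to 87262498.

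Of these 10, 2 lay in the 1 Mb window of chromosome 2 from 74000001 to 75000000, which by general knowledge of mm9 holds the HoxD cluster. No mm9 annotation was used, so peaks were not placed in or outside genes, and the windows of the Hox clusters were chosen with earlier results known. The HoxD window held 19 kept peaks among 129 E11.5 peaks (14.7%, 9.11 to 22.0), beside 13 early peaks and 17 of all stages. Its kept share was not above the 12.1% of all E11.5 peaks beyond counting error. Among its 19 kept peaks, 3 carried a replicated Hoxa11 site. Besides the peak from 74976217, these ran from 74218813 to 74219333, with 9.18-fold Hoxa11 enrichment, and from 74535111 to 74535616, with 6.87-fold. All 3 had their Hoxa11 summit inside the Hoxa13 peak, and the nearest E11.0 peaks were 2254, 2108 and 6270 bp away. Hoxa11 counts for the other E11.5 peaks of this window are not given, so these 3 cannot be read as a trait of kept peaks.

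The other Hox windows held kept peaks at shares near that of all E11.5 peaks and no kept peak with a replicated Hoxa11 site. On chromosome 6, the window of HoxA from 52000001 to 53000000 held 17 kept peaks of 114 (14.9%, 8.93 to 22.8). Of these, 2 met a Hoxa11 replicate 1 peak, from 52140768 to 52141181 and from 52365530 to 52366262, and none met replicate 2. The windows of HoxC on chromosome 15 and HoxB on chromosome 11 held 6 of 52 and 4 of 37. In the HoxC window, 2 kept peaks met replicate 1 only and 1 met replicate 2 only, the last being 1412 bp wide, from 102423917 to 102425328.

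The 5 widest kept peaks each met several peaks at E12.5. The widest, on chromosome 1 from 7379362 to 7384341, spanned 4980 bp and met 4 E12.5 peaks, with 4259 bp shared in all. Next were chromosome 14 from 52008458 to 52010729 (2272 bp) and chromosome 12 from 8624905 to 8626792 (1888 bp), each with 2 E12.5 peaks. These 3 also met Hoxa11 in both replicates, and their replicate 2 peaks were 7.95-, 8.73- and 9.08-fold enriched. The next widest, on chromosome 16 from 54636908 to 54638533, met 3 E12.5 peaks that shared only 653 of its 1626 bp, and met no Hoxa11 peak. The last of the 5, on chromosome 4 from 97889828 to 97891445, met 2 E12.5 peaks and Hoxa11 in both replicates (5.24-fold in replicate 2). The chromosome 12 interval stood 347 bp from an E11.0 peak, so its absence there turns on the distance allowed. Repeated sequence was not screened out, and wide intervals cannot be taken as the strongest sites.

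Kept peaks were spread over the whole genome with little variation. They made up 11.4% (chromosome 19) to 13.0% (chromosome 3) of the E11.5 peaks of each autosome, around 12.1% of all E11.5 peaks. Among autosomes, only chromosomes 3 (12.4 to 13.6) and 8 (12.2 to 13.8) had intervals above that figure, and on chromosome Y 11 of 40 E11.5 peaks were kept peaks (27.5%, 14.6 to 43.9). On chromosome X the share was 10.6% (9.71 to 11.53), below it beyond counting error. Unplaced sequence held 68 kept peaks of 590. Of 2582 windows of 1 Mb with an E11.5 peak, 2485 held a kept peak, with a median of 6 (quartiles 3 and 9) and at most 26. Peaks of the other shared classes reached higher: up to 72 early peaks and 56 peaks of all stages in 1 window. The 10 richest windows held 241 kept peaks in all, against 354 early peaks and 398 peaks of all stages in the 10 windows richest in each.

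**Figure D5:**
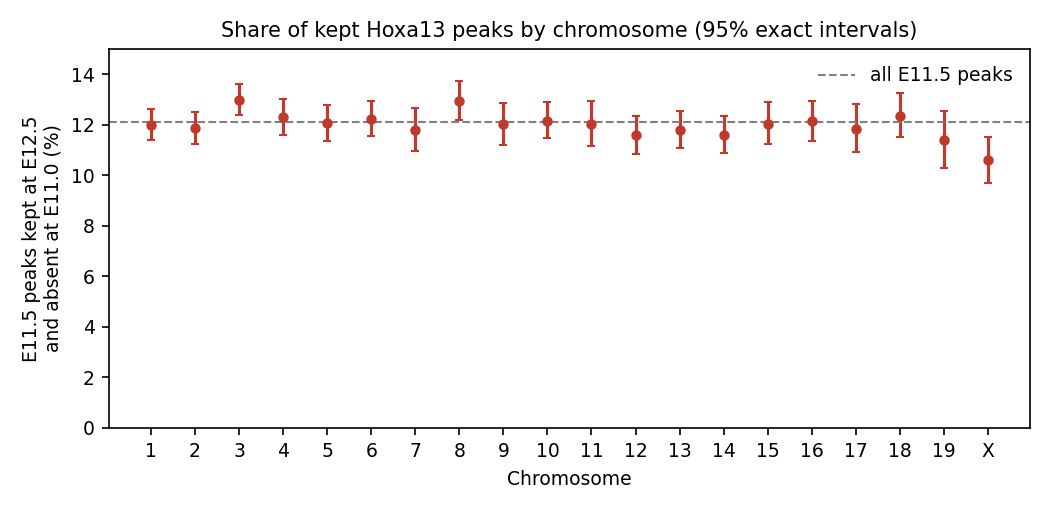
Kept peaks as a percent of the E11.5 Hoxa13 peaks of each chromosome, with 95% exact intervals, and the share over all E11.5 peaks (12.1%) as a dashed line. The autosomes lie between 11.4 and 13.0%, and chromosome X is at 10.6%.

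The windows richest in kept peaks were on chromosome 16 from 63000001 to 64000000, with 26 of 161 E11.5 peaks, and on chromosome 6 from 21000001 to 22000000, with 25 of 127. Windows with 24 each followed on chromosome 3 from 80000001, chromosome 16 from 86000001 and chromosome 12 from 37000001. The chromosome 3 window also held 4 kept peaks with a replicated Hoxa11 site, among them the 15.3-fold peak above. That peak and its neighbour from 80850184 to 80850562 each met a replicate 1 peak of 1260 bp, so these 4 need not be separate sites. Hoxa11 counts for the other E11.5 peaks of this window are not given, so the 4 cannot be read as a trait of kept peaks.

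Neighbouring E11.5 peaks shared the stage pattern only slightly more than the list as a whole. The next E11.5 peak along the chromosome was itself a kept peak after 12.9% of kept peaks (12.4 to 13.4), after 12.3% of peaks of E11.5 alone and after 10.8% of early peaks (10.4 to 11.3). Another kept peak lay within 10 kb of 18.8% of kept peaks, the same figure as for early peaks among themselves. Most kept peaks, 14062, stood alone by this distance, and 3257 fell into 1516 runs of 2 or more.

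The longest run was on chromosome X from 120146086 to 120183178, with 8 kept peaks of 203 to 339 bp among 19 E11.5 peaks, of which 2 met a replicated Hoxa11 site. That window is among 26 dense ones, whose peak count in some Hoxa13 list exceeds the third quartile of windows by more than 3 interquartile ranges. Runs of 7 lay outside those windows on chromosome 3 from 86334509 to 86355013 (2 with a replicated Hoxa11 site) and chromosome 14 from 52103455 to 52128245. In the chromosome 14 run, kept peaks made up 7 of 8 E11.5 peaks within 24791 bp, and 5 of them carried a replicated Hoxa11 site. Neighbouring kept peaks there met the same E12.5 peak, from 52116524 to 52118063, so these 5 need not be separate sites. All of these runs were picked by their number of kept peaks. Hoxa11 counts for the other E11.5 peaks in them are not given, so the Hoxa11 counts cannot be read as a trait of kept peaks.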

How the data were processed

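ChIP-seq peak lists of 5 libraries were used, and the 4 input libraries were not analysed here. MACS2 2.1.0, Bowtie2 2.2.2, CASAVA 1.4 and the build mm9 are named, per the submitters' processing notes; roles, thresholds and use of input are not given in the sources used here. The deposited Hoxa13 and Hoxa11 replicate 1 lists hold positions only. For Hoxa11 replicate 2 the authors deposited a score, a fold enrichment (a linear ratio), −log10 p and q values and a summit, which served here only for ranking and describing that list. The deposited positions are printed 1-based.

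Overlaps were computed with Python 3.11.15, pandas 2.3.3 and NumPy 2.4.6, checked against bedtools 2.31.1 (17319 kept peaks by both) and tested on simulated data. Shares carry exact Clopper-Pearson intervals (SciPy 1.17.1), differences Newcombe intervals, and width-weighted differences a normal interval. No p-values were computed, since peaks are not replicates. The upper limit for a count of 0 is 3 peaks of the total. The labels do not say whether the Hoxa11 replicates came from separate litters.

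Named regions are the 10 kept peaks on chromosomes 1 to 19 and X with the highest Hoxa11 replicate 2 score among those with a replicated site, the 5 widest kept peaks, the 5 richest 1 Mb windows and the 3 longest runs with gaps up to 10 kb. Kept peaks, lists and rules were chosen with earlier results of these data known. The planned motif, annotation and limb gene counts were not run: no mm9 genome or annotation was used here, so no sequence is shown. Hox cluster windows were placed to the whole Mb from general knowledge of mm9.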

Additional observations from a re-analysis of the deposited data

How the results depend on the processing

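The number of kept peaks was 7074 under 50% reciprocal overlap with E12.5 and absence from E11.0 still at 1 bp, against 17319. It was 7793 with the 50% rule throughout, which counts a smaller overlap with E11.0 as absence. With the widest 44699 peaks of each Hoxa13 list it was 8946. With no E11.0 peak within 500 bp it was 16935. The share of kept peaks with Hoxa11 was 2.59 to 4.38% with 1 Hoxa11 replicate left out, 4.88% with the union of replicates, 1.78% with a −log10 q of at least 5 in replicate 2, 2.85% under 50% reciprocal overlap throughout and 3.52% with the widest peaks, against 2.08%. Its excess over early peaks and over peaks of E11.5 alone had an interval above 0 in each of the 11 alternatives run for either. The difference from peaks of all 3 stages, −0.0439 points, turned to 1.64 points under 50% reciprocal overlap throughout and 0.748 with the widest peaks. It stayed below 0, with intervals spanning 0, under 6 other settings: −0.297 and −0.134 without Hoxa11 replicate 1 and 2, −0.387 with their union, −0.0593 with the stricter q, −0.185 with no E11.0 peak within 500 bp and −0.0567 with peaks resized to 200 bp. It was 0.0176 without unplaced sequence and 0.0581 without the 26 dense windows, both with intervals spanning 0. Weighted over E11.5 width it was 0.860 (1.73 and 0.806 with replicate 1 and 2 peaks, 0.923 without dense windows and unplaced sequence), and over partner width 0.972. The dense windows, the weighting over partner width and the last 3 width-weighted values were added after the data had been seen. The cause of the turn under reciprocal overlap was not tested. No paired analysis was possible because the Hoxa13 stages have 1 library each and share no replicate number with Hoxa11 by label. Read depth is unknown, so presence in a list is the only measure, and absence from the E11.0 list does not show absence of binding.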

Other observations

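Kept peaks with a replicated Hoxa11 site were less evenly spread than kept peaks as a whole. All 19 autosomes held at least 1, but 32 of the 361 lay on chromosome X, which held 480 kept peaks. Of those 32, 31 fell in dense windows of chromosome X, in 3 adjacent windows: 11 from 120000001 to 121000000, 13 from 121000001 to 122000000 and 7 from 122000001 to 123000000. In that order, these windows held 18, 20 and 12 kept peaks, and 39, 37 and 26 peaks of all 3 stages. On 4_random, 6 of 6 kept peaks carried a replicated Hoxa11 site. These are not 6 separate sites, since neighbours among them met the same replicate 2 peak, from 138498 to 141049. Hoxa11 counts for the other E11.5 peaks of chromosome X and 4_random are not given. The uneven spread therefore cannot be read as a trait of kept peaks. Here and elsewhere each Hoxa13 peak is counted, also where neighbours met the same Hoxa11 peak. Without the 26 dense windows the share of kept peaks with a replicated Hoxa11 site was 1.92%, against 2.08% with them.

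Outside the dense windows, the 1 Mb window with the most such peaks was on chromosome 14 from 52000001 to 53000000. It held 42 E11.5 Hoxa13 peaks, of which 13 were kept peaks (31.0%) and 7 of these carried a replicated Hoxa11 site. The widest kept peak but one, from 52008458 to 52010729, and the run from 52103455 to 52128245 both lie in it. These windows were picked by the counts given, which are therefore a description. Hoxa11 counts for the other E11.5 peaks in them are not given.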
